A study of Mus musculus with 12 samples.

Results

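Transcripts of 10 genes used as markers of tissue macrophages were followed in mouse dorsal root ganglia: Ly86, C1qa, C1qb, C1qc, Aif1, Csf1r, Cx3cr1, Cd68, Lyz2 and Tyrobp. Each was found by its symbol among the 44345 genes of the count files, and all 10 were among the 16819 genes with enough reads to be tested. The set was drawn up with the treatment difference of these genes already known, to ask whether Ly86 moves with the other 9, so their differences between treatments are given as a description without a test. The tissue was the L4 to L6 ganglia of C57BL/6 mice aged 6 to 8 weeks, collected 24 h after a cut through the dorsal columns of the spinal cord. Every animal had this lesion, the controls included, and no uninjured ganglia were compared here. One group was injected intraperitoneally with MS275 at 12 mg/kg (entinostat, which inhibits histone deacetylases of class I) and the other with its vehicle of 3.2% Tween80, 20% PEG300 and 4% DMSO, once at the lesion and once more 2 h before collection. RNA was sequenced from 3 libraries per treatment, each a pool of the ganglia of 2 mice. Open chromatin was mapped by ATAC-seq in 3 samples per treatment, each from 1 mouse, and combined by the authors into 1 list of regions per treatment.

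Macrophages reside in dorsal root ganglia around the cell bodies of sensory neurons and along the vessels, where they clear debris and respond to nerve injury. They depend on the receptor CSF1R, which binds CSF1 and IL-34, and they carry CX3CR1, the receptor for fractalkine, and TYROBP, the adaptor that passes on signals from receptors such as TREM2. C1qa, C1qb and C1qc encode the chains of C1q, which starts the classical complement pathway and is made in tissues largely by macrophages. LY86, also called MD-1, is a secreted partner of CD180, a relative of the toll-like receptor TLR4, much as LY96 (MD-2) is the partner of TLR4 itself.

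The RNA libraries held 34992533 to 60370523 reads assigned to genes. Levels are given as CPM, the read count of a gene scaled to the assigned reads of its library, with TMM factors. CPM do not correct for transcript length, so levels are compared between libraries and not between genes. The ganglia were sequenced whole: fewer cells of a type and less RNA per cell cannot be told apart, and the data do not show which cells a read came from. MS275 replicate 1 stood apart from the other libraries in markers of other tissues. The summed level of 14 listed neutrophil genes was 302 CPM there, compared with 49.8 to 80.8 CPM across the vehicle group, and 54.8 and 90.7 CPM in MS275 replicates 2 and 3. The 9 genes of the skeletal muscle list summed to 641 CPM there, against 7.13 to 56.2 CPM in vehicle and 92.8 and 95.6 CPM in the other MS275 libraries. The sum of the haemoglobin list (Hba-a1, Hba-a2 and Alas2) was likewise highest in that library, at 142 CPM against 31.5 to 63.8 CPM in the other 5. Its further symbols Hbb-bs and Hbb-bt were not matched in the count files. Transcripts of 10 sensory neuron genes summed to 10119 to 11531 CPM over the 6 libraries, and each of the 10 macrophage genes had at least 42 reads in every library. Values without MS275 replicate 1 are given beside the results it moves most.

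Ly86 was the one gene of the set with a large and regular difference between treatments. Its level was 121, 129 and 135 CPM in vehicle replicates 1, 2 and 3, and 215, 244 and 223 CPM in MS275 replicates 1, 2 and 3. The lowest MS275 library lay far above the highest vehicle library, and within each treatment the libraries were close together. The means were 128 ± 6.74 CPM in vehicle and 228 ± 15.0 CPM with MS275 (SD, n = 3). The log2 fold change was 0.83 (SE 0.058), or 1.77-fold. Reads behind these values numbered 5337 to 7890 per vehicle library and 7716 to 13417 per MS275 library. Ordered by log2 fold change from the highest, Ly86 stood at place 448 of the 16819 genes, and with each library left out in turn at places 302 (without MS275 replicate 1) to 731 (without MS275 replicate 2). Leaving out MS275 replicate 1 gave 0.87, and leaving out each library in turn gave 0.78 to 0.87. In GRCm38.p6, the assembly of mm10, Ly86 spans chr13:37345345-37419036 and overlaps no other annotated gene.

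The 3 chains of C1q showed differences of less than 0.25 on the log2 scale. C1qa was at 12.9, 12.1 and 13.2 CPM in vehicle against 17.1, 13.3 and 14.0 CPM with MS275, with a log2 fold change of 0.22 (SE 0.10). Its groups did not overlap, but MS275 replicate 2 exceeded vehicle replicate 3 by less than 0.1 CPM, and without MS275 replicate 1 the log2 fold change was 0.11. C1qb was at 15.0, 13.2 and 15.2 CPM in vehicle against 18.5, 15.5 and 13.6 CPM with MS275 (0.14, SE 0.11, and 0.020 without MS275 replicate 1). C1qc was at 10.2, 9.63 and 10.4 CPM in vehicle against 11.2, 9.99 and 10.8 CPM with MS275 (0.081, SE 0.079, and 0.047 without MS275 replicate 1). For both C1qb and C1qc the groups overlapped, and MS275 replicate 1 was the highest of the 6 libraries for all 3 chains. The 3 genes lie beside one another on chromosome 4, C1qb at chr4:136880126-136886200, C1qc at chr4:136889801-136892936 and C1qa at chr4:136895916-136898844.

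The receptor genes Csf1r and Cx3cr1 and the adaptor gene Tyrobp had fitted differences near 0, with those of Cx3cr1 and Tyrobp depending on the libraries used. Csf1r was at 13.0, 12.9 and 13.2 CPM in vehicle against 13.8, 12.8 and 14.0 CPM with MS275, a log2 fold change of 0.053 (SE 0.069). Cx3cr1 was at 3.98, 4.11 and 4.87 CPM in vehicle against 4.64, 4.51 and 3.79 CPM with MS275 (0.0059, SE 0.13), and its log2 fold change was -0.046 to 0.095 with 1 library left out. Tyrobp was at 4.27, 3.98 and 5.05 CPM in vehicle against 5.56, 3.37 and 4.20 CPM with MS275 (-0.015, SE 0.18). Without MS275 replicate 1 the Tyrobp value was -0.23, and without MS275 replicate 2 it was 0.16. All 3 overlapped between the groups, and for Tyrobp the MS275 libraries held both the highest and the lowest of the 6 values. Csf1r overlaps Mir6983 and Gm52352, and Cx3cr1 (chr9:120048683-120068296) overlaps Gm33858. How reads of those overlaps were assigned is not known.

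The 3 remaining genes encode proteins of the macrophage interior or its secretion. Cd68, a membrane protein of late endosomes and lysosomes, was at 2.56, 2.87 and 2.35 CPM in vehicle against 2.63, 2.33 and 2.81 CPM with MS275 (log2 fold change -0.0092, SE 0.15, and -0.074 to 0.073 with 1 library left out), with interleaved groups. Aif1, which encodes the actin-binding protein IBA1, was at 1.29, 1.52 and 1.77 CPM in vehicle against 1.30, 0.84 and 1.22 CPM with MS275 (-0.46, SE 0.23, and -0.60 and -0.27 without MS275 replicates 1 and 2). The Aif1 groups overlapped only through vehicle replicate 1 and MS275 replicate 1, and the gene was counted by 42 to 93 reads per library.

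Lyz2, which encodes the lysozyme of macrophages, monocytes and neutrophils, varied most among the MS275 libraries. It was at 50.9, 51.4 and 44.5 CPM in vehicle against at 87.7, 49.9 and 70.4 CPM with MS275, a log2 fold change of 0.50 (SE 0.16). MS275 replicates 1 and 3 exceeded every vehicle library, while MS275 replicate 2 lay below vehicle replicates 1 and 2. Without MS275 replicate 1 the log2 fold change was 0.29, and without MS275 replicate 2 it was 0.70. The order of Lyz2 over the 3 MS275 libraries was that of the 14 listed neutrophil genes, whose sums were 302, 54.8 and 90.7 CPM in replicates 1, 2 and 3. That order is not particular to neutrophil genes. The sums of the muscle, haemoglobin and monocyte lists had it too, and that of the sensory neuron list did not. The part of any of these cells in the Lyz2 values was not tested. Reads of Lyz2 can also be confused with those of its near-identical neighbour Lyz1, which held 23 to 41 reads per vehicle library and 36 to 63 per MS275 library.

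**Figure D1:**
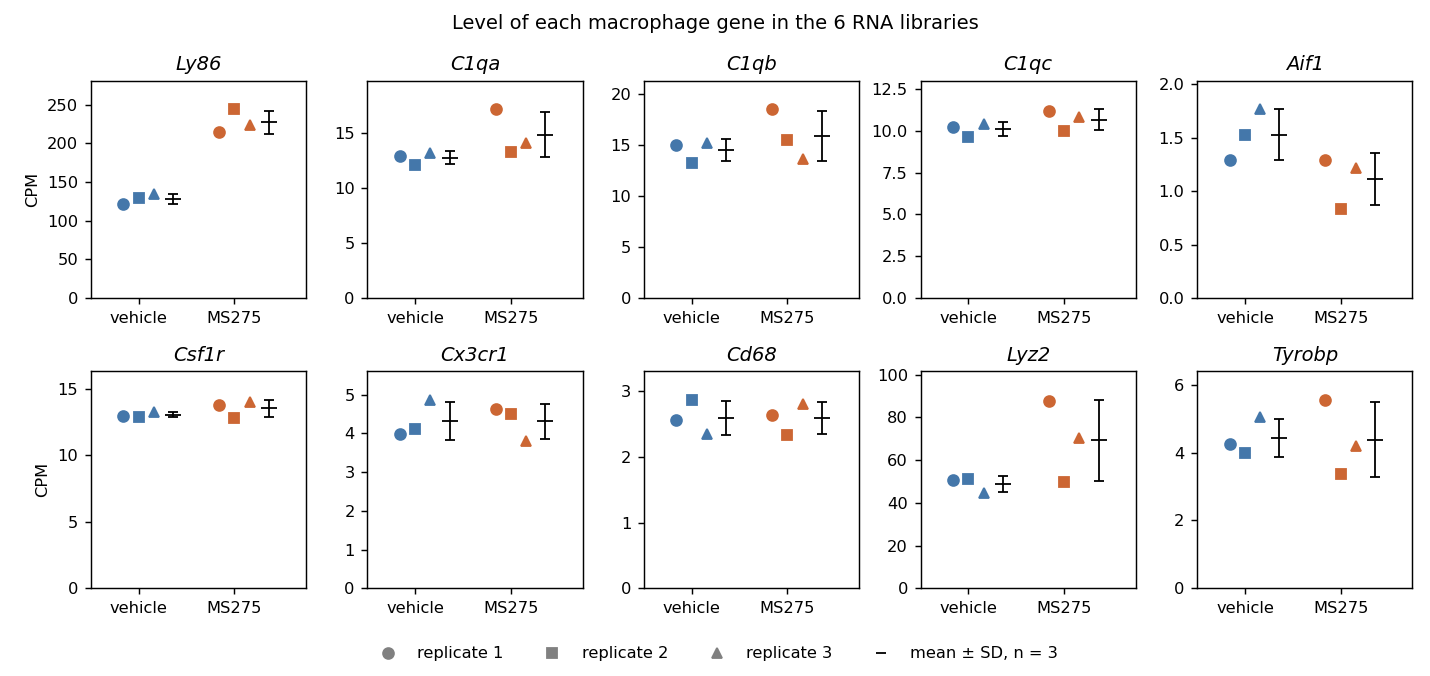
Level of each of the 10 genes in CPM (vertical axes, each starting at 0 with its own scale) in the 3 vehicle and 3 MS275 libraries; marker shape gives the replicate, and the bar the mean ± SD (n = 3). Ly86 lies between 121 and 135 CPM in vehicle and between 215 and 244 CPM with MS275, while the groups of 8 of the 9 other genes overlap.

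As the set was chosen on this contrast, counts over it are descriptive and nothing is read from them. By the quasi-likelihood test of edgeR, adjusted by Benjamini-Hochberg over all genes at 0.05, 11.0% of the 16819 genes passed, 5.10% higher and 5.89% lower with MS275. Ly86 was the 1 gene of the 10 that passed, and 0 of the other 9 did. Of the 9, 1 was under 0.05 before adjustment in edgeR, beside 28.5% of all genes. DESeq2 and limma voom called 0 of the 9, beside 15.1% and 10.6% of the genes they tested. Lyz2 passed when MS275 replicate 2 was left out, where 16.1% of genes passed, and when no filter on low counts was used. The groups did not overlap, with MS275 higher, for 2 of the 10 genes, Ly86 and C1qa, beside 15.9% of all genes, and with MS275 lower for 0, beside 17.9%. The median log2 fold change of the 9 other genes was 0.053 and that of all genes tested 0.0020. Ly86 was 0.77 above the median of the 9.

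Among the MS275 libraries, the order of Ly86 differed from that of most other genes of the set. Set against its mean in vehicle, Ly86 was 0.74, 0.93 and 0.80 log2 units higher in MS275 replicates 1, 2 and 3. The median of the 9 other genes was 0.15, -0.01 and 0.10 in the same libraries, so of the MS275 libraries the one in which Ly86 was highest was the one in which their median was lowest. Of the 9 other genes, 7 had their highest MS275 value in replicate 1, 2 in replicate 3 and 0 in replicate 2, and 7 had their lowest in replicate 2. Ly86 had its lowest MS275 value in replicate 1 and its highest in replicate 2. The shares of all genes with either order were not counted, and replicate 1 is the library with the highest neutrophil and muscle sums. These orders are therefore a description of 3 libraries only. In replicate 1 alone, Lyz2 exceeded Ly86 on this scale, at 0.84. Among the vehicle libraries Ly86 was highest in replicate 3 (0.07), as were the median of the 9 (0.05) and 7 of the 9 genes, while Ly86 was lowest in replicate 1 and the median of the 9 in replicate 2.

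**Figure D2:**
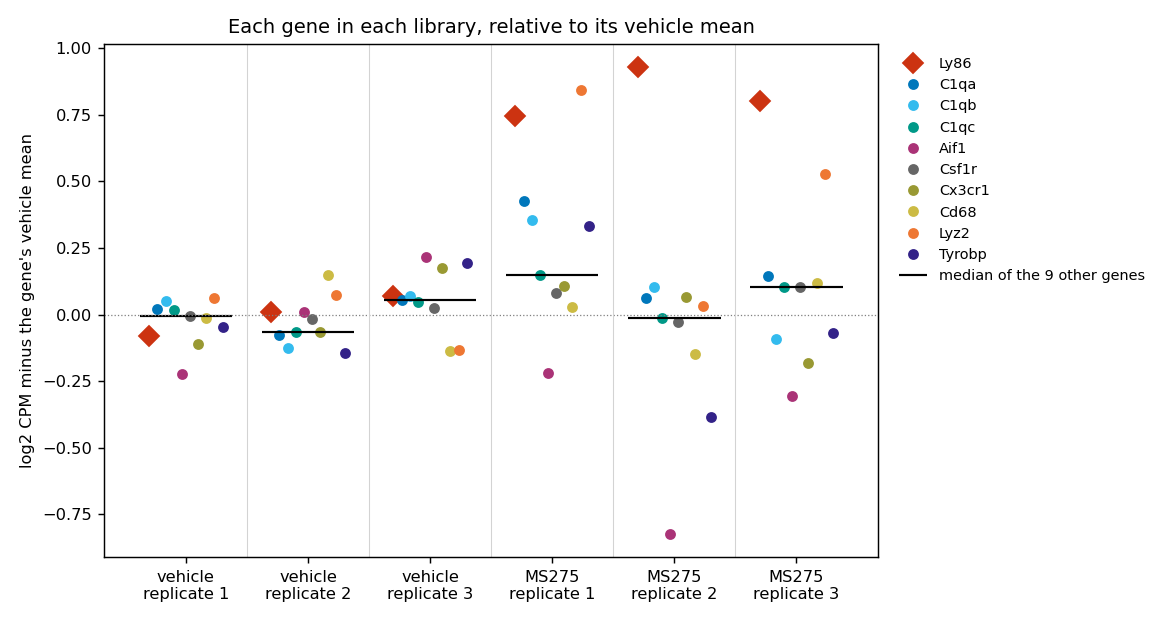
Level of each gene in each library as log2 CPM minus the mean of that gene over the 3 vehicle libraries (vertical axis, log2 units); diamonds are Ly86, circles the 9 other genes and black lines their median. Ly86 sits at 0.74 to 0.93 in the 3 MS275 libraries, where the median of the others is between -0.01 and 0.15.

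The same contrast was seen in the log2 difference between Ly86 and each other gene within a library, a ratio that hardly depends on how the library is scaled. Against Csf1r it was 3.22, 3.32 and 3.34 in vehicle and 3.96, 4.25 and 3.99 with MS275. Against C1qc it was 3.56, 3.74 and 3.69 in vehicle and 4.26, 4.61 and 4.36 with MS275. The MS275 libraries lay above the vehicle libraries for 8 of the 9 genes, with a mean shift from 0.61 for C1qa to 1.27 for Aif1. The exception was Lyz2, against which the difference was 1.25, 1.33 and 1.60 in vehicle and 1.29, 2.29 and 1.67 with MS275 (mean shift 0.36). Each of these differences holds the Ly86 change of 0.83 itself, on which the set was chosen. A gene that hardly changed gives such a shift by construction, so the count of 8 is no separate result. Ly86 made up 51.5% to 54.9% of the reads of the 10 genes in the vehicle libraries and 57.0% to 68.5% in the MS275 libraries. The summed level of the 9 others was 111 to 114 CPM in vehicle and 162, 113 and 135 CPM in MS275 replicates 1, 2 and 3, of which Lyz2 was the largest part.

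Profiles were also compared with those of 12263 other genes of at least moderate level, by the root-mean-square difference of log2 CPM centred on each gene's mean over the 6 libraries. Nearest to Ly86 were Gpr30 (0.073), Lcat (0.083), Tuba1c (0.090), Pdlim4 (0.094) and Rab20 (0.097). Gpr30 encodes an oestrogen-responsive G protein-coupled receptor, Lcat a cholesterol-esterifying enzyme, Tuba1c an alpha tubulin, Pdlim4 a PDZ and LIM domain protein and Rab20 a small GTPase. Among the nearest to the mean of the 9 other genes were Slirp (0.022), Shisa3 (0.030), Ddah2 (0.031) and Rps27l (0.031), all with log2 fold changes under 0.1. Of the 12263 genes, 98.5% lay closer to that mean than Ly86 did, and for the 9 genes themselves the share ran from 1.70% (C1qc) and 4.36% (Csf1r) to 91.4% (Lyz2) and 93.7% (Aif1). The 9 are part of the mean they were compared with, and every profile shares the same 6 libraries. Profiles centred in this way also hold the treatment difference, on which the set was chosen. The share of 98.5% and the genes named as nearest to Ly86 are therefore no separate result. When only the deviations within each treatment were compared, which leaves the treatment difference out, 74.7% of genes lay closer to the mean of the 9 than Ly86. For the 9 genes that share ran from 0.913% (C1qa) to 66.3% (Aif1) and 78.3% (Lyz2), so within treatments Ly86 lay inside their range. By that measure the nearest genes were Ppp4r4, Matn2, Polr2a, Atg7 and Nfe2l2 for Ly86, and included Ppia, Btg1, Rps24 and Anpep for the mean of the 9.

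The proteins that work with these gene products were examined next, beginning with those of LY86. Cd180, the receptor that LY86 binds, was at 1.12, 1.13 and 1.49 CPM in vehicle against 2.24, 1.46 and 1.71 CPM with MS275. The groups overlapped, since MS275 replicate 2 lay below vehicle replicate 3, and the log2 fold change of 0.54 (SE 0.22) had adjusted p = 0.143 in edgeR. Tlr4 (log2 fold change 0.13, SE 0.17), Ly96 (-0.049, SE 0.18) and Cd14, a co-receptor for lipopolysaccharide (0.41, SE 0.28), did not pass either. Of 23 tested genes of the LY86 and toll-like receptor pathway 0 rose and 2 fell, beside 5.10% and 5.89% of all genes, with a median log2 fold change of 0.061. The 2 were Rela, a subunit of NF-kappa-B (-0.25, SE 0.060, edgeR adjusted p = 0.0301), and Traf6, a ubiquitin ligase downstream of toll-like receptors (-0.25, SE 0.062, edgeR adjusted p = 0.0354). With any 1 vehicle library or MS275 replicate 3 left out 0 of the list passed, and without MS275 replicate 2 there were 2 that rose and 2 that fell. The number passing over all genes changed too when 1 library was left out, here and for the lists below. With all 6 libraries 858 rose and 991 fell. Without vehicle replicates 1, 2 and 3, 196, 127 and 336 rose, and 179, 134 and 392 fell. Without MS275 replicates 1, 2 and 3, 924, 1388 and 448 rose, and 951, 1375 and 434 fell.

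Among 16 tested complement partners of C1q, 4 rose and 1 fell, beside 5.10% and 5.89% of all genes, and the median was 0.031. C1ra and C1s, the proteases that C1q activates, had log2 fold changes of 0.022 (SE 0.13) and 0.055 (SE 0.11) and did not pass. C3, the central component on which the pathways converge, was at 7.52, 6.72 and 8.81 CPM in vehicle against 27.7, 17.6 and 16.8 CPM with MS275. All 3 MS275 libraries exceeded all 3 vehicle libraries, with replicate 1 the highest, and C3 rose by 1.44 on the log2 scale (SE 0.19, edgeR adjusted p = 0.00357). C4b, the component cleaved by C1s, was at 53.3 ± 3.65 CPM in vehicle against 65.1 ± 6.23 CPM with MS275, without overlap, and rose by 0.29 on the log2 scale (SE 0.073, edgeR adjusted p = 0.0361). Cd55 (0.33, SE 0.046) and Cd59a (0.17, SE 0.037), membrane proteins that restrain complement, also rose. Cr1l, the complement regulator Crry, fell (-0.38, SE 0.075). With any 1 vehicle library left out 2 of the list rose, and without MS275 replicate 1 there were 4 that rose and 2 that fell. Over all genes 196, 127 and 336 rose without vehicle replicates 1, 2 and 3, against 858 with all 6 libraries.

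Among the ligands of the receptors, Csf1 (log2 fold change -0.11, SE 0.075), Il34 (-0.12, SE 0.079) and Cx3cl1, which encodes fractalkine (0.19, SE 0.11), did not pass. Trem2 (-0.040, SE 0.29), Syk, the kinase recruited by TYROBP (0.44, SE 0.25), and Sfpi1, the files' symbol for the macrophage transcription factor PU.1 (0.14, SE 0.18), did not pass either. Syk was at 6.31 CPM in MS275 replicate 1 and at 2.85 to 3.30 CPM in the other 5 libraries. Hcst, an adaptor related to TYROBP, was too low to test, with 30 reads in MS275 replicate 1 and 4 to 7 in the others. Of 17 tested genes of this pathway 1 rose and 0 fell, beside 5.10% and 5.89% of all genes. That gene was Siglech, a receptor that signals through TYROBP and is also a marker of plasmacytoid dendritic cells (0.24, 0.36 and 0.35 CPM in vehicle against 0.94, 0.60 and 0.64 CPM with MS275, log2 fold change 1.18, SE 0.31, edgeR adjusted p = 0.0408). It rested on 11 to 45 reads per library. The count for the list was 0 without any 1 vehicle library or MS275 replicate 1 or 3, and 3 without MS275 replicate 2. Without MS275 replicate 2, 16.1% of all genes passed, while fewer passed without any 1 vehicle library or MS275 replicate 3 than with all libraries.

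**Figure D3:**
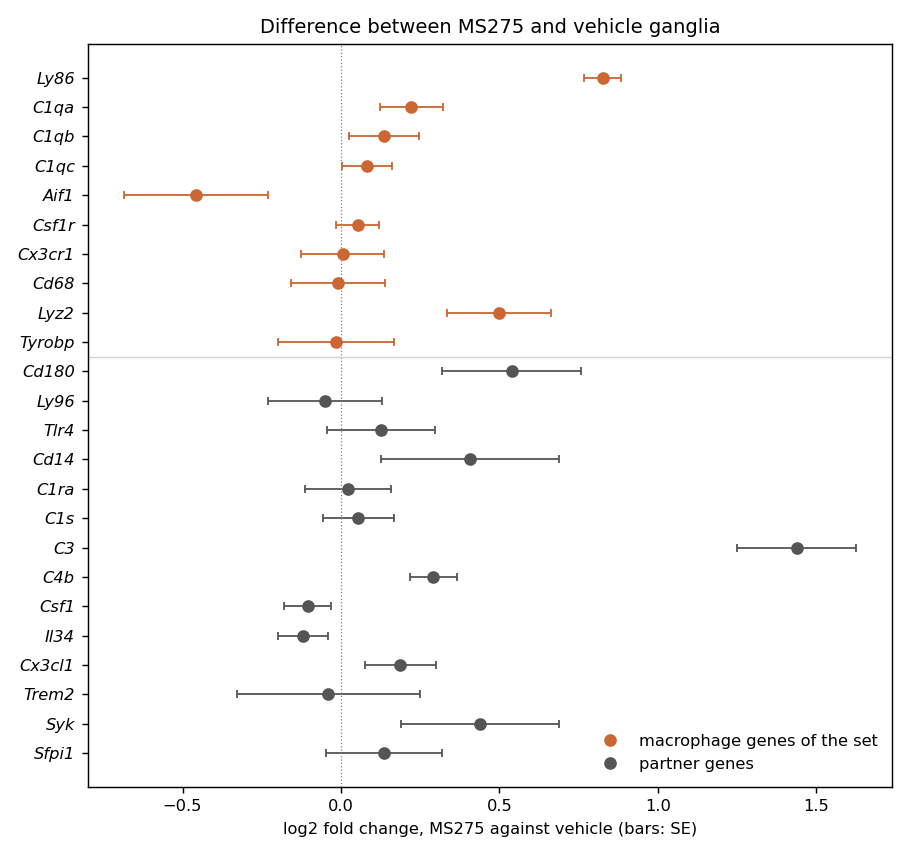
Log2 fold change of MS275 against vehicle (horizontal axis) for the 10 genes of the set, in orange, and for 14 partner genes, in grey; bars are 1 SE of the edgeR fit. Ly86 is at 0.83, the 9 other genes lie between -0.46 and 0.50, and C3 at 1.44 is the highest of the partners.

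A wider list of 30 other macrophage genes was counted in the same way. Of the 29 tested, 0 rose and 0 fell in edgeR at an adjusted p under 0.05, beside 5.10% and 5.89% of all genes. Before adjustment 4 of them were under 0.05, beside 28.5% of all genes. DESeq2 called 1 and limma voom 0, beside 15.1% and 10.6% of the genes they tested. Their median log2 fold change was 0.20, and 22 of the 29 were above 0, beside 8486 of all 16819 genes. The groups did not overlap for 4 with MS275 higher and 1 with MS275 lower, beside 15.9% and 17.9% of all genes. Of the 29, 24 had their highest value of the 6 libraries in MS275 replicate 1, as did 22.9% of all genes. The summed level of the 30 was 222 to 239 CPM in vehicle and 297, 229 and 239 CPM in MS275 replicates 1, 2 and 3. Emr1, the files' symbol for the F4/80 antigen, was at 4.02, 4.06 and 4.11 CPM in vehicle against 3.62, 2.75 and 4.14 CPM with MS275. Its log2 fold change of -0.22 (SE 0.15) had the sign opposite to that of most of the list. Mrc1, a mannose receptor, was at 11.2, 9.86 and 11.2 CPM in vehicle against 15.3, 11.7 and 10.1 CPM with MS275. For both the groups overlapped. When MS275 replicate 2 was left out, 2 of the list rose and 1 fell, and when MS275 replicate 1 was left out 0 rose and 0 fell. In those fits 16.1% and 11.0% of all genes passed.

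Of 16 tested genes of the phagosome and lysosome, which macrophages share with neurons and other cells, 6 rose and 0 fell, beside 5.10% and 5.89% of all genes. Their median was 0.13. Ctsl, a lysosomal protease, was at 915, 949 and 947 CPM in vehicle against 1189, 1201 and 1116 CPM with MS275, without overlap (log2 fold change 0.32, SE 0.042, edgeR adjusted p = 0.00373). Hexa (0.23, SE 0.039), Ctsz (0.27, SE 0.054) and Gpnmb, a glycoprotein of lysosomes (0.64, SE 0.14), were the next by p. The summed level of the 17 listed genes was 6897 to 6973 CPM in vehicle and 7587 to 7803 CPM with MS275, and it was lowest, of the MS275 libraries, in replicate 1. Without MS275 replicate 1 the number that rose was 8, and without vehicle replicate 1, 2 or 3 it was 1, 1 and 2. Over all genes 924 rose in the first of these fits and 196, 127 and 336 in the others, against 858 with all 6 libraries.

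Markers of neutrophils and monocytes were highest in MS275 replicate 1. All 13 tested neutrophil genes and 10 of 11 monocyte genes had their highest value there, beside 22.9% of all genes. For the counts that follow, 5.10% of all genes rose and 5.89% fell in edgeR with all 6 libraries. DESeq2 called 15.1% and limma voom 10.6% of the genes they tested. In edgeR 11.0% of all genes passed without MS275 replicate 1 and 16.1% without MS275 replicate 2. Those that rose numbered 196, 127 and 336 without vehicle replicates 1, 2 and 3 and 448 without MS275 replicate 3, against 858 with all libraries. Counts with 1 library left out are thus no trait of a list alone. Among the neutrophil genes 1 rose, Elane, a granule protease (log2 fold change 2.59, SE 0.72, edgeR adjusted p = 0.0494). Without MS275 replicate 1 or 3 or any 1 vehicle library the count was 0, and without MS275 replicate 2 it was 13. Of the monocyte genes 1 rose, S100a4 (0.44, SE 0.085), and the summed level of 12 listed monocyte genes was 99.4 to 110 CPM in vehicle and 169, 104 and 109 CPM in MS275 replicates 1, 2 and 3. That count was 0 without any 1 vehicle library and 4 without MS275 replicate 2. Of 9 dendritic cell genes 2 rose, Ccr7 and Siglech, but 1 without MS275 replicate 1 and 0 in DESeq2. Of 5 B cell, 3 T and NK cell and 5 mast cell genes 0 passed in edgeR, DESeq2 or limma voom. Before adjustment 0, 0 and 1 were under 0.05 in edgeR, beside 28.5% of all genes. Among the tissue cells, 9 of 9 skeletal muscle genes rose (4 without MS275 replicate 1, and 0 without vehicle replicate 1 or 2 and in limma voom). Of 8 endothelial genes 4 rose (0 or 1 without any 1 vehicle library or MS275 replicate 3), and of 8 satellite glial genes 1 rose and 3 fell (2 and 3 without MS275 replicate 1). In edgeR 1 of 7 fibroblast and 1 of 2 central nervous system genes rose, and 0 of 10 sensory neuron, 8 Schwann cell and 3 haemoglobin genes passed, with 3, 0 and 0 under 0.05 before adjustment. DESeq2 called 2 and limma voom 1 of the sensory neuron genes and 0 of the other 2 lists. Without MS275 replicate 1, edgeR called 2 sensory neuron genes that rose and 2 haemoglobin genes that fell. The part of these cells in the levels of the 10 genes was not tested. The Ly86 log2 fold change was 0.87 without MS275 replicate 1, the library with the highest neutrophil, monocyte and muscle sums.

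**Figure D4:**
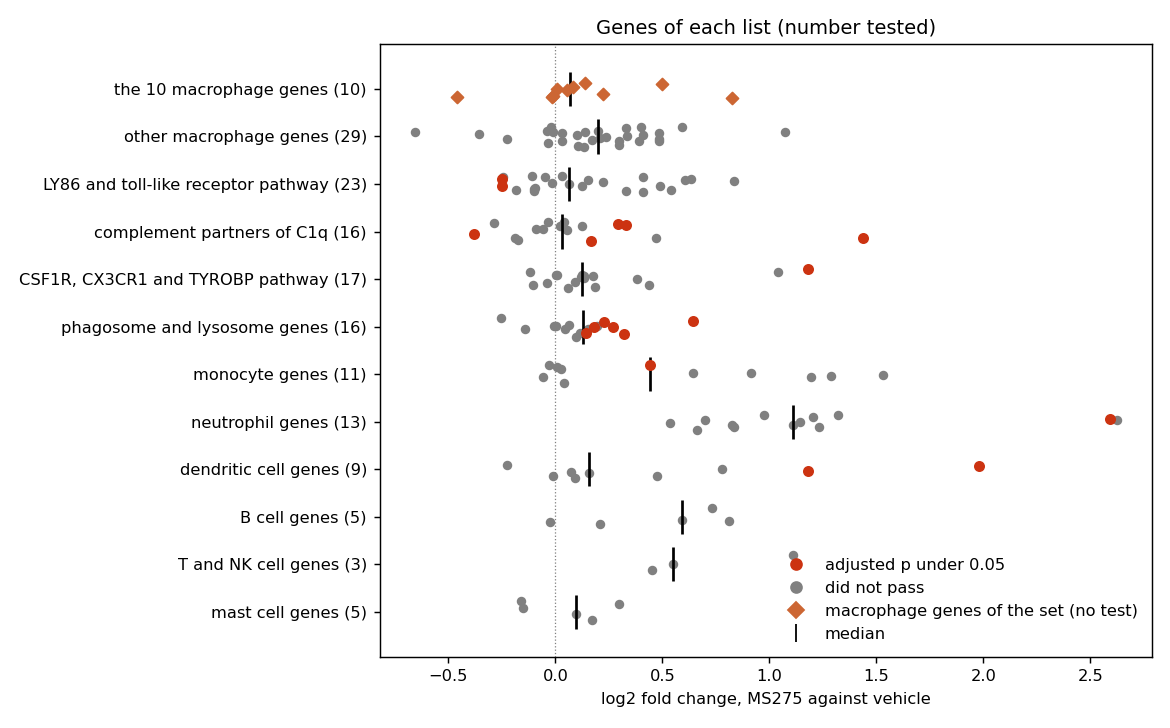
Log2 fold change of each tested gene (horizontal axis) by list, with the number tested in brackets; red points passed edgeR's adjusted p under 0.05, grey points did not, orange diamonds are the 10 genes of the set, shown without a test, and black bars are medians. Of the 29 other macrophage genes 0 passed, beside 11.0% of all genes, and of the lists drawn the 13 neutrophil genes have the highest median.

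The ATAC-seq lists gave open regions at the same genes. They are 1 combined list per treatment without replicates, so a region in 1 list and not in the other is no measured change, and fold and -log10 q are the authors' values. After overlapping entries were merged, the vehicle list held 177906 regions and the MS275 list 161788, of which 47.5% and 52.8% overlapped a region of the other list by at least 1 bp. Within the gene spans and 1000 bp at each end, the 10 genes held 20 regions in the vehicle list, 10 of them shared, and 17 in the MS275 list, 9 of them shared. At least 1 region was listed for 9 genes in vehicle and 7 with MS275; of all tested genes with a known span, 94.3% and 93.9% had one. Their -log10 q ran from 0.61 to 5.89 in the vehicle list, where 25.3% of all regions reach 5 and 2 of the 20 did. In the MS275 list it ran from 0.36 to 4.48, where 19.9% of all regions reach 5 and 0 of the 17 did.

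Positions relative to a transcription start could be given for the 7 genes matched in a RefSeq table of promoters, which are Ly86, C1qb, C1qc, Aif1, Cx3cr1, Cd68 and Lyz2. A region lay within 1000 bp of the start in both lists for C1qb, Cx3cr1 and Cd68, in the vehicle list only for C1qc, and in neither list for Ly86, Aif1 and Lyz2. Over all tested genes with a known start, 89.7% had such a region in the vehicle list and 88.6% in the MS275 list, and 8.47% had none in either. Of genes with a mean of at least 100 CPM, the range in which Ly86 lies, 3.12% had none in either, while 96.3% and 95.7% had one in the vehicle and MS275 lists. Of genes under 15 CPM, 81.4% and 79.6% had such a region in the 2 lists.

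For Ly86 the region nearest to the start lay 8476 bp downstream in the vehicle list, at chr13:37353821-37354210, and 8450 bp downstream in the MS275 list, at chr13:37353795-37354269. It was the 1 Ly86 region that both lists shared, with a fold enrichment of 1.72 and a -log10 q of 2.69 in vehicle and 2.06 and 4.48 with MS275. Each list held 2 further regions within Ly86 that the other lacked. Those of the vehicle list had a -log10 q of 3.64 and 2.06. Those of the MS275 list were low in it, at 0.61 and 1.07, with 3.34% and 14.85% of that list lower. Lyz2 had no region within its span and 1000 bp around it in either list. At C1qb the vehicle region covered the start and the MS275 region ended 166 bp upstream of it. At Cx3cr1 the MS275 region covered the start and the vehicle region ended 27 bp upstream of it. The MS275 region was at the floor of its list, with a -log10 q of 0.36 and 0% of that list lower. The vehicle region had a -log10 q of 1.68, with 24.0% of the vehicle list lower.

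**Figure D5:**
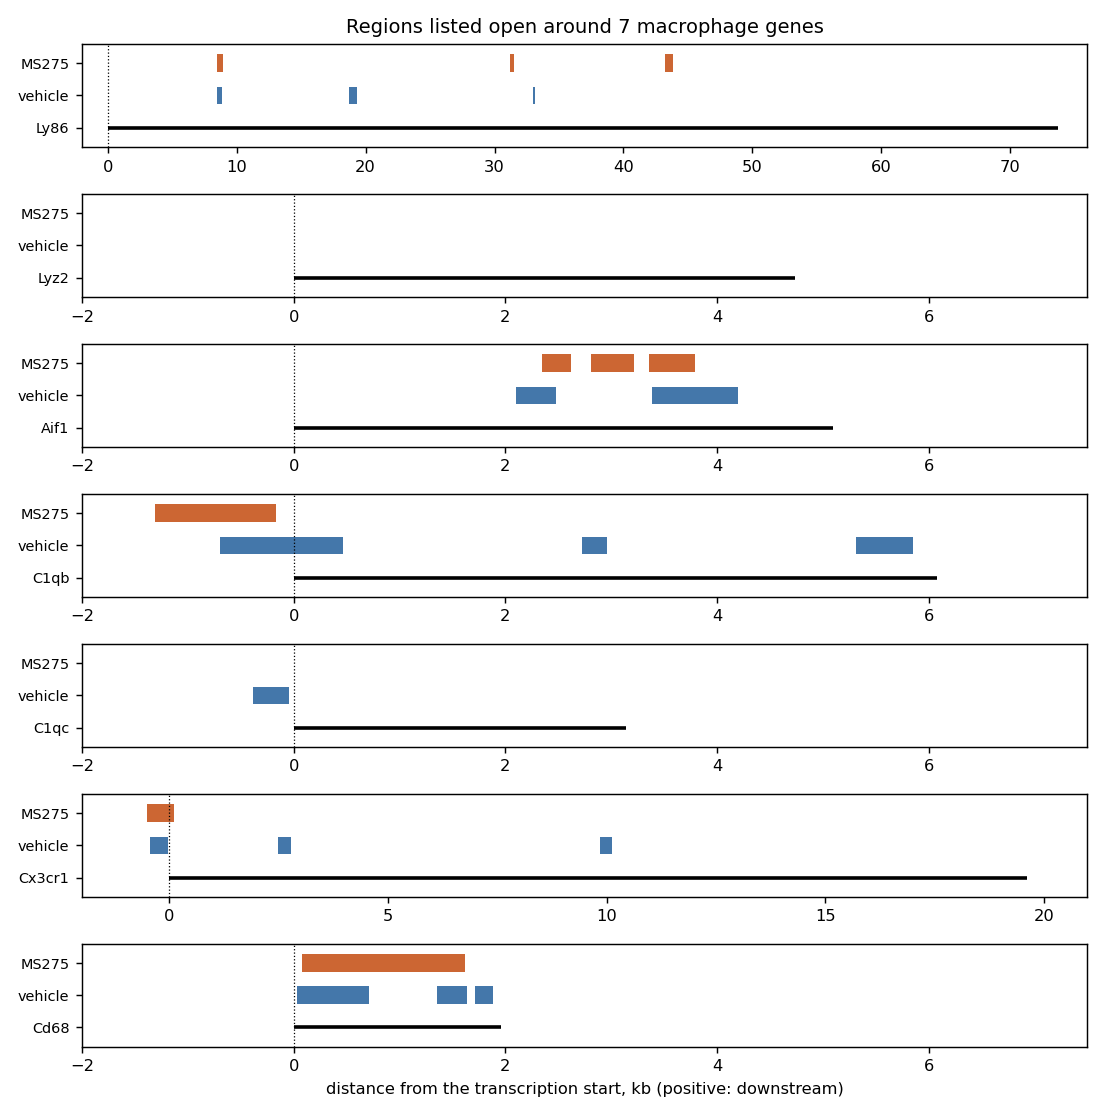
Regions listed as open in the vehicle (blue) and MS275 (orange) lists around 7 of the genes, by distance from the transcription start in kb (horizontal axis, positive downstream), with the gene as a black line. Regions adjoin the start of C1qb, Cx3cr1 and Cd68 in both lists, while Ly86 has its first region more than 8 kb downstream and Lyz2 has none within its span and 1000 bp around it.

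The 250 bases before the start of 2 genes with a start region in both lists and of 2 with none in either are shown for comparison, 5′ to 3′ on the strand of the gene, from RefSeq's GRCm38.p6. Capitals mark matches, on either strand, to 6 short motifs: GAGGAA (core of the PU.1 site), TGANTCA (AP-1), the consensus of interferon regulatory factors, TGCTGA (a short site of MAF factors), GGGCGG (GC box) and TATAAA (the core promoter element). No match overlaps another in the 4 sequences. Ly86 (chr13:37345095-37345344, plus strand) and Lyz2 (chr10:117282273-117282522, minus strand) had no start region. C1qb (chr4:136886201-136886450, minus strand) and Cx3cr1 (chr9:120068297-120068546, minus strand) had one in both lists, that of Cx3cr1 at the floor of the MS275 list.
Ly86: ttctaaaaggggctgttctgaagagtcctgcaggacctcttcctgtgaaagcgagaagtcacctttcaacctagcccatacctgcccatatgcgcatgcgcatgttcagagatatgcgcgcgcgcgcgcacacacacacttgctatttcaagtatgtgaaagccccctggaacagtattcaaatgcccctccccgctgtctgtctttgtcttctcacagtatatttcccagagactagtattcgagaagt
Lyz2: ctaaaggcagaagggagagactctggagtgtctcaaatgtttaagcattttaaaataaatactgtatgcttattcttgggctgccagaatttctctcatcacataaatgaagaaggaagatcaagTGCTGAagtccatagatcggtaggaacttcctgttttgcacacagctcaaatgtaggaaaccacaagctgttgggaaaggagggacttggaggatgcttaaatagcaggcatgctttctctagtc
C1qb: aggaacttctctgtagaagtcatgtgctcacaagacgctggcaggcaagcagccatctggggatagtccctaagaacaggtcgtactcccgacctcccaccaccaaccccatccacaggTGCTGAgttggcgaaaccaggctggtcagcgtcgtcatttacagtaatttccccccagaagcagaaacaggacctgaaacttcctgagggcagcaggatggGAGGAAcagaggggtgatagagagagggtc
Cx3cr1: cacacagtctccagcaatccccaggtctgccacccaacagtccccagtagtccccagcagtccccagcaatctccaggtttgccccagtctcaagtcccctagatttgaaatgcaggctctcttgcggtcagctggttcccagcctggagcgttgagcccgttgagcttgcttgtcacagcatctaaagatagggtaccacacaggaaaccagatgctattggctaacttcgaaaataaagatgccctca

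None of the 6 motifs was found in the Ly86 window or in that of Cx3cr1, which says only that these letters are not in those 250 bases. The Lyz2 window held the MAF motif 120 to 125 bases before the start. The C1qb window held the same motif 126 to 131 bases before the start and the PU.1 core 25 to 30 bases before it. Over the 7 genes the PU.1 core was found in 4 (Aif1, C1qb, C1qc and Cd68), beside 23.1% of 27025 promoters of the same length. The AP-1 motif was found in Cd68 alone, with 2 matches, beside 6.87% of all promoters, and the interferon regulatory factor motif in Aif1 alone, beside 3.04%. The MAF motif was found in 2 of the 7, beside 15.8%, the GC box in 2, beside 32.9%, and the TATAAA element in 0, beside 13.0%. A match describes the sequence and is no measurement of binding.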

How the data were processed

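The deposited RNA files hold raw read counts per gene symbol, 1 file per library, made by the authors from strand-specific poly(A) libraries read in pairs of 75 bp, per the labels' protocols. The submitters' processing notes name mm10, FastQC 0.10.1, STAR 2.7.0, R 3.5.0, limma 3.38.3 and edgeR 3.24.3, with no step assigned to any. For the counter, its strand setting and the peak caller, the names were not given in the sources used here. The 5 rows per file without a gene (18.89% to 20.56% of reads) were dropped first. The 2 deposited ATAC lists hold, per the files' layout, a score, a fold enrichment ratio, a -log10 q-value and a summit offset, all by the authors' caller on combined replicates; the depth of these libraries is unknown.

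The count model was edgeR 4.0.16 under R 4.3.3, with TMM scaling, the filterByExpr filter and treatment alone as a term. Its 2-sided quasi-likelihood p was adjusted by Benjamini-Hochberg over 16819 genes, with 0.05 as threshold. A standard error is the log2 fold change over the root of F. The biological coefficient of variation was 8.62%. Per-library log2 CPM used a prior count of 2. The design text calls the triplicates biological. The chi-square per degree of freedom between libraries of a group was 6.78 to 49.5, so no pair agreed within sampling noise. The procedure was tested on simulated counts.

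The 10 genes and 19 further lists were chosen with earlier results of these data known. Named are the 10 genes, up to 4 genes per list that passed with the smallest p, 15 partner genes, and the 5 nearest profiles among genes with a mean log2 CPM of at least 1 and no provisional symbol. A gene taken by this rule is not reported here. Emr1, Mrc1 and Lyz1 were chosen after their values were seen. Of 228 list symbols 6 were matched through RefSeq synonyms and 2 were not matched. Gene spans and promoters came from RefSeq tables of GRCm38.p6; 7 of the 10 genes were in the promoter table. Alternatives covered normalisation, the filter, DESeq2 1.42.0, limma voom 3.58.1, the replicate block, each library left out, haemoglobin, mitochondrial and muscle genes left out and, for ATAC, the window, a minimum -log10 q of 5, the overlap rule and equal list lengths.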

Additional observations from a re-analysis of the deposited data

How the results depend on the processing

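The Ly86 log2 fold change lay above those of the 9 other genes under all 13 alternative fits, and was 0.79 with no normalisation factors, 0.83 with DESeq2's size factors and 0.78 to 0.87 with 1 library left out. The 117 alternative values of the 9 other genes moved by less than each gene's SD between replicates, pooled over the treatments. Leaving out 1 of 3 libraries can hardly move a value by more than that SD. For those fits this says little, and the shifts of Lyz2, Tyrobp and Aif1 given above stand. The sign changed in 2, 5 and 3 of 13 fits for Cd68, Cx3cr1 and Tyrobp, all near 0. The median of the 9 was 0.020 to 0.13 with 1 library left out, the highest without MS275 replicate 2. The number of genes called, 1849, fell to 375, 261 and 728 without vehicle replicates 1, 2 and 3 and to 882 without MS275 replicate 3, and was 1875 and 2763 without MS275 replicates 1 and 2. The smaller fits have fewer samples. Without normalisation factors 680 genes were higher and 1724 lower, against 858 and 991. Of 494 alternative counts over the lists, 91 moved by more than 1.5 times or changed to or from 0. At the 10 genes, a window of 5000 bp gave 37 vehicle and 26 MS275 regions, with 18 shared, and a -log10 q of at least 5 gave 2, 0 and 0.

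Replicate numbers are shared between treatments, and the deviations of same-numbered libraries correlated at 0.019, 0.11 and -0.061. With so few libraries these values cannot settle whether the numbers pair the samples. With the replicate block 2088 genes were called, 1703 of them among the 1849. Ly86 was at 0.83 and the median of the 9 others at 0.052.

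Depth limits the low genes most: Aif1 rested on 42 to 93 reads per library, and 3 libraries per treatment limit all tests. The ATAC lists carry no replicate error.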

Other observations

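The genes around Ly86 were examined after its values were seen. Within 500 kb of the gene the RefSeq table holds 21 others, of which 2 were among the genes counted, and both had enough reads to test. The rest were not counted under their RefSeq symbols, so their levels are not known. F13a1, a coagulation factor subunit also made by macrophages, was at 11.7 ± 0.49 CPM under vehicle and 13.4 ± 3.45 CPM under MS275 (SD, n = 3; log2 fold change 0.21, edgeR adjusted p = 0.409). Rreb1, a zinc finger transcription factor, was at 5.31 ± 0.71 and 4.59 ± 0.43 CPM (log2 fold change -0.21, edgeR adjusted p = 0.32). Neither passed.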
